A study of Mus musculus with 12 samples.

Results

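Axon guidance genes encode secreted or membrane-bound cues and the receptors that read them. The 74 genes described here, of 47729 in the count table, were taken by name. They are all genes whose symbol begins with Sema3 to Sema7, Plxna, Plxnb, Plxnc, Plxnd, Unc5, Epha, Ephb, Efna or Efnb, together with the Slits, Robos, netrins, netrin G genes, Dcc and Neo1. Of these, 69 are ligands or receptors (36 and 33). The other 5 matched by spelling only and encode something else: Unc50, Unc5cl and the antisense transcripts Plxna4os1, Plxna4os2 and Plxna4os3. Ntn3 was also named by the rule, but no identifier of the table was matched to it.

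The RNA came from mesenchymal cells that were sorted by flow cytometry from healthy uteri of cycling female Pdgfrb-BAC-eGFP mice, whose green fluorescent protein (GFP) reporter for Pdgfrb sits on a bacterial artificial chromosome. One group of 6 libraries is GFPtotal, all GFP-positive cells, which per the study's description hold GFP-high perivascular cells and GFP-low stromal fibroblasts together. The other group of 6 is GFPlow, the stromal cells alone, called GFPdim in some labels. All animals carried the reporter and none is described as treated, and the profile of GFP-high cells can be read only through the mixture, in proportions that no source used here gives. The mice's ages were not among the labels. The description counts 12 mice, but no label ties a library to a mouse, so p-values measure the spread between libraries.

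Library totals ran from 12631266 to 14950639 counts in GFPtotal, against 14339804 to 18425596 in GFPlow. GFPtotal 3, 4 and 5 stood apart from GFPtotal 1, 2 and 6 over all genes (first principal component, 34.0% of the variance), so each named guidance or pathway gene is also given without them where that ends its call. The header of the GFPlow 6 file names its alignment N8, which does not match that library's title. The other headers name N1 to N6 for GFPtotal and S1 to S5 for GFPlow, so the letter N is that of GFPtotal. The summed pericyte markers of GFPlow 6, at 163 CPM (counts scaled to library size), were the highest of GFPlow (86.5 to 163 CPM) and far from GFPtotal (1068 to 1897 CPM). Pdgfrb itself ranged over 78.9 to 171 CPM in the GFPtotal group, against 50.7 to 87.1 CPM in GFPlow, and its call (log2 fold change 0.81, adjusted p = 0.0305) was lost without GFPtotal 3, 4 and 5 (0.64, adjusted p = 0.207). In a bulk sample, fewer cells of a type and less RNA per cell cannot be told apart.

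In guidance signalling, Slits act on Robo receptors, netrins on Dcc, neogenin and Unc5 receptors, semaphorins on plexins (the class 3 semaphorins with neuropilins as co-receptors), and ephrins on Eph receptor tyrosine kinases. Receptor activation acts on the cytoskeleton and can attract or repel a growing axon or a moving cell. Ephrins are anchored in the membrane, so that Eph signalling needs contact between cells and can run in both directions. Outside the nervous system the same families are active in blood vessels, where ephrin-B2 marks arterial and EphB4 venous endothelium and where ephrin-B2 also acts in the mural cells that wrap vessels.

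For 3 of the called ligand genes (Slit2 and Sema6b higher and Efnb2 lower in GFPtotal), sequence upstream of an annotated transcription start is shown, because it lies near the measured transcript. The windows of 233 bases come from RefSeq (GRCm38.p6), read 5′ to 3′ on the gene's strand. Slit2 lies on the plus strand (chr5:47982905-47983137) and Efnb2 (chr8:8661260-8661492) and Sema6b (chr17:56140361-56140593) on the minus strand. Those of Efnb2 and Sema6b were cut to the length of that of Slit2 and leave out the bases next to the start. The windows of the other called genes, and that of another RefSeq start inside Sema6b, reach into annotated transcripts and are not shown. Gene counts do not tell which start of Sema6b was used. Capitals mark the GC box GGGCGG and the TATA box TATAAA wherever their letters, or those of the opposite strand, were found.
Slit2: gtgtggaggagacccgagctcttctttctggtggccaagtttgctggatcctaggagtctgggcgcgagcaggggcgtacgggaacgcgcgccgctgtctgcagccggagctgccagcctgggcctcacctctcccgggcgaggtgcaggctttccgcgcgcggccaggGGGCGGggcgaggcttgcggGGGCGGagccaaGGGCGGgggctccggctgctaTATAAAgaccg
Efnb2: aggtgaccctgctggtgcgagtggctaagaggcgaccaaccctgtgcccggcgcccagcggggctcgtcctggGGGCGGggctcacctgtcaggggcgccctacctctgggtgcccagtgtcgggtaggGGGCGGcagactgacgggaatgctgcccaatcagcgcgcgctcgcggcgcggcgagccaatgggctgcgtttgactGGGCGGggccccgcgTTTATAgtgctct
Sema6b: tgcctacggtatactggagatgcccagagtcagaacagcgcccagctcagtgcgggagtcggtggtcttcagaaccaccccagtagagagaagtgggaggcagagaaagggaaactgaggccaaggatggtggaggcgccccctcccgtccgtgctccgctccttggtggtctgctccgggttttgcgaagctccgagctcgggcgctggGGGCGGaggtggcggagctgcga
The windows of Slit2 and Efnb2 hold 3 GC boxes and 1 TATA box each, which in Efnb2 is written on the opposite strand, and that of Sema6b holds 1 GC box and 0 TATA boxes. Of 32851 RefSeq windows of the same length, 30.3% hold at least 1 GC box and 11.9% at least 1 TATA box. These matches describe letters only.

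The comparison of GFPtotal with GFPlow sets a mixture of GFP-high perivascular and GFP-low stromal cells against stromal cells alone. Of 6 guidance genes called, 5 encode ligands. Slit2, Slit3, Sema5b and Sema6b were higher in GFPtotal, and the ephrin gene Efnb2 and the netrin receptor gene Unc5c were lower. Of the 74 genes, 43 had enough counts to be tested. By edgeR's quasi-likelihood test with Benjamini-Hochberg adjustment over 14523 genes, at an adjusted p below 0.05, 4 of the 43 were higher and 2 lower. Among all genes tested 5.41% were called, 4.55% higher and 0.854% lower. The members' shares were 14.0% in all, 9.30% higher and 4.65% lower, and whether these exceed the shares of all genes was not tested.

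The ligands and the receptors are counted separately. Of 22 tested ligands, 4 were higher and 1 lower, with a median log2 fold change (GFPtotal minus GFPlow) of 0.47. Of 20 tested receptors, 0 were higher and 1 was lower, with a median of −0.17. Over all 43 the median was −0.07, with 21 genes above 0 and 22 below, and over all genes tested it was −0.0006. Before adjustment, 17 of the 43 had a p below 0.05 in the same test. This is a larger share than the 19.9% of all genes tested (2889 of 14523), and the difference between the shares was not tested. All 6 GFPtotal libraries lay above all 6 GFPlow libraries for Slit2, Slit3 and Sema5b among the tested members, and in the opposite direction for Unc5c. The same held for 2.86% and 0.806% of all genes tested. Without GFPlow 6, Slit3, Slit2, Sema5b, Sema6b and Efnb2 kept their calls (adjusted p of 0.000795, 0.0349, 0.00478, 0.032 and 0.047) and Unc5c lost its call (0.0525).

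**Figure D1:**
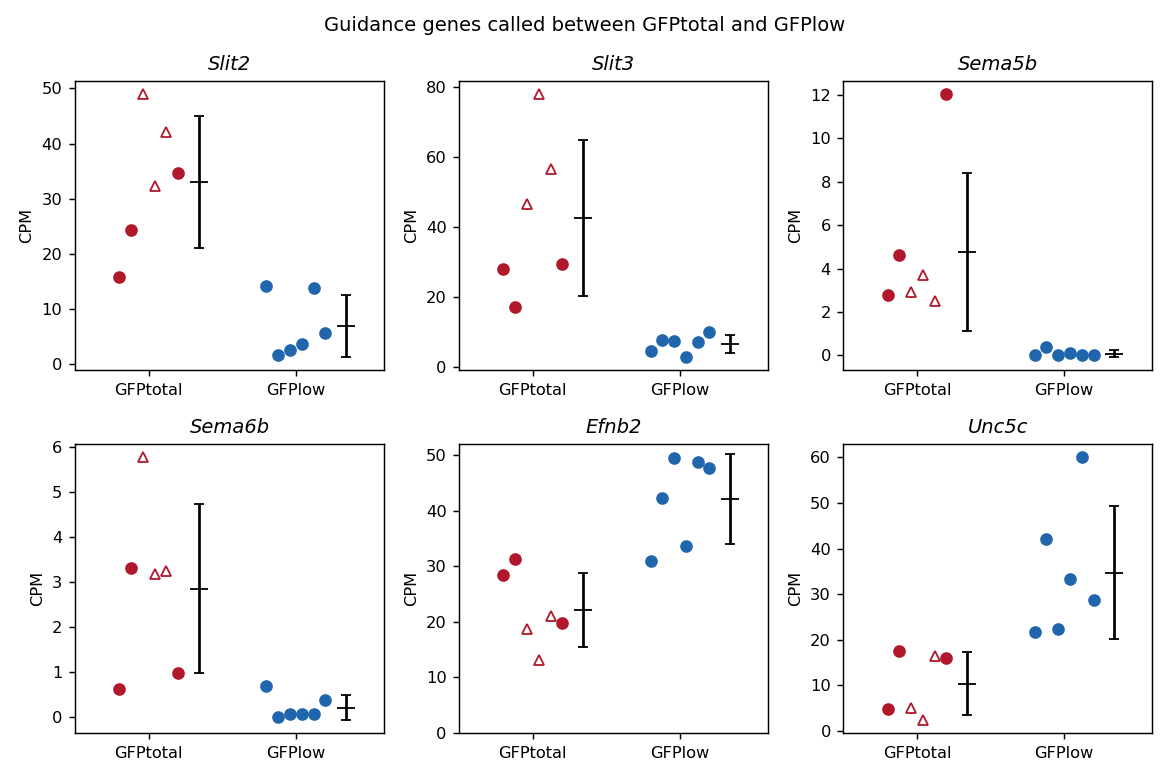
Normalised counts (CPM, linear axis from 0) of the 6 called guidance genes in the 6 GFPtotal (red) and 6 GFPlow (blue) libraries; circles and triangles are single libraries, open triangles are GFPtotal 3, 4 and 5, and the black marks are the mean ± SD. Slit2, Slit3 and Sema5b separate the groups with GFPtotal on top, Unc5c separates them with GFPlow on top, and Sema6b and Efnb2 overlap.

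Slits are large secreted proteins that bind Robo receptors and mostly repel. Slit3 (ENSMUSG00000056427, chromosome 11, 35121224 to 35708507, GRCm38) had its lowest, median and highest values at 17.1, 38.0 and 78.1 CPM in GFPtotal and at 2.89, 7.30 and 9.94 CPM in GFPlow. The highest GFPlow library was below the lowest GFPtotal library, and the highest GFPtotal values were those of GFPtotal 3, 4 and 5 (46.6 to 78.1 CPM). The means were 42.6 ± 22.4 and 6.64 ± 2.52 CPM (SD, n = 6 each). The log2 fold change was 2.68 (adjusted p = 0.000412, SE 0.37), and it was 1.88 (adjusted p = 0.0103) without GFPtotal 3, 4 and 5.

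Slit2 (ENSMUSG00000031558, chromosome 5, 47983138 to 48307733), whose upstream window is printed above, ranged from 15.9 through a median of 33.5 to 49.0 CPM in GFPtotal and from 1.70 through 4.71 to 14.2 CPM in GFPlow. The groups lay close without overlapping, since GFPtotal 1 was at 15.9 CPM and GFPlow 1 and 5 at 14.2 and 13.9 CPM. Its log2 fold change was 2.25 (adjusted p = 0.0126, SE 0.49). Without GFPtotal 3, 4 and 5 it was 1.82 and no longer called (adjusted p = 0.126). The third Slit gene, Slit1, had 24 counts in all GFPtotal libraries and 5 in all GFPlow libraries and was not tested.

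Per kilobase of exon (RPKM, the CPM divided by exon length), Slit3 was the leading Slit gene in both groups, with 82.4 ± 6.37% of the summed Slit level in GFPtotal and 78.9 ± 15.0% in GFPlow. The summed Slit level was 8.38 ± 3.96 RPKM in GFPtotal and 1.38 ± 0.424 RPKM in GFPlow. Within GFPtotal it was 9.82 to 14.2 RPKM in libraries 3, 4 and 5 and 3.77 to 6.21 RPKM in libraries 1, 2 and 6. Summed pericyte markers moved the same way within GFPtotal (1548 to 1897 CPM in libraries 3, 4 and 5, 1068 to 1447 CPM in 1, 2 and 6), and summed fibroblast markers the other way (19654 to 23420 and 30033 to 32741 CPM). Their part in the Slit levels was not tested.

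Sema5b encodes a transmembrane semaphorin with thrombospondin repeats. The gene (ENSMUSG00000052133, chromosome 16, 35541145 to 35664732) ranged from 2.53 through 3.31 to 12.0 CPM in GFPtotal, while GFPlow was at 0 in 4 libraries and at 0.118 and 0.396 CPM in GFPlow 4 and 2. This amounted to 367 counts against 9, a ratio of normalised counts of 49.1 (exact 95% interval 25.6 to 108, counting error only). Its log2 fold change was 5.62 (adjusted p = 0.00183, SE 0.94), the largest of the 43. It was 6.04 (adjusted p = 0.00461) without GFPtotal 3, 4 and 5 and 7.17 without GFPlow 2, which held 7 of the 9 GFPlow counts.

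Sema6b, a transmembrane semaphorin that signals through class A plexins, was at low levels in both groups (ENSMUSG00000001227, chromosome 17, 56123085 to 56140343). GFPtotal libraries were at 0.619, 3.23 and 5.79 CPM (lowest, median, highest) and GFPlow libraries at 0, 0.0678 and 0.696 CPM. The groups overlapped, because GFPtotal 1 lay below GFPlow 1. The log2 fold change was 3.70 (adjusted p = 0.0192, SE 0.88), and it was 4.51 without GFPlow 1. Each of several omissions ended the call: GFPtotal 3 (adjusted p = 0.0666), GFPlow 3 (0.0512), GFPlow 4 (0.0519), and GFPtotal 3, 4 and 5 together (log2 fold change 2.87, adjusted p = 0.300).

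The abundant semaphorins were not among the called genes. Sema5a, a close relative of Sema5b, had the highest level per exon length of all 69 ligands and receptors, with 59.3 RPKM in GFPtotal and 72.2 RPKM in GFPlow. It contributed 51.3 ± 8.43% and 49.9 ± 14.9% of the summed semaphorin level. Its CPM ran from 487 through 581 to 973 in GFPtotal and from 374 through 603 to 1858 in GFPlow, where GFPlow 1 alone stood far above the rest. The log2 fold change was −0.28 (adjusted p = 0.709, SE 0.34), and it was 0.18 without GFPlow 1. Sema3c, a secreted semaphorin, was next, with 30.3 and 38.4 RPKM and a log2 fold change of −0.34 (adjusted p = 0.339, SE 0.19).

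Thus Sema5b and Sema6b were called from low levels (0.672 and 0.719 RPKM in GFPtotal), far under Sema5a and Sema3c on the same scale. The summed level of the 20 semaphorin genes was 114 ± 14.9 RPKM in GFPtotal and 134 ± 45.7 RPKM in GFPlow, a difference within the spread of the libraries. Of 12 semaphorins tested, 10 were not called. Among these, and chosen after their values were seen, the secreted class 3 gene Sema3a had a log2 fold change of −0.54 (adjusted p = 0.0899, SE 0.18), Sema3b one of 1.27 (adjusted p = 0.100, SE 0.43), Sema6a one of 0.44 (adjusted p = 0.125, SE 0.16) and Sema6d one of 0.59 (adjusted p = 0.183, SE 0.24).

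Efnb2 encodes ephrin-B2, a transmembrane ligand of EphB receptors and EphA4. In GFPtotal the gene (ENSMUSG00000001300, chromosome 8, 8617434 to 8661242) was at 13.2, 20.5 and 31.4 CPM and in GFPlow at 31.0, 45.0 and 49.6 CPM (lowest, median, highest). The overlap was slight, with GFPtotal 2 at 31.4 CPM above GFPlow 1 at 31.0 CPM. The means were 22.1 ± 6.68 and 42.2 ± 8.07 CPM (SD, n = 6 each), and the log2 fold change was −0.93 (adjusted p = 0.0213, SE 0.22). The call was lost without GFPlow 3 (adjusted p = 0.054) and without GFPtotal 3, 4 and 5 (log2 fold change −0.69, adjusted p = 0.209).

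Efnb2 was the main ephrin-B gene in both groups, with 78.1 ± 8.24% of the ephrin-B level per exon length in GFPtotal and 84.5 ± 7.35% in GFPlow. Since ephrin-B2 is best known from endothelium, the markers of that cell type are given beside it. Summed endothelial markers were 37.8 to 65.3 CPM in GFPtotal against 40.2 to 63.9 CPM in GFPlow, and Cldn5 was at 0 in all libraries. Pecam1 was at 0.243 to 1.13 CPM in GFPtotal against 0 to 0.509 CPM in GFPlow, while Cdh5 was at 2.86 to 7.66 and 5.05 to 39.6 CPM. Cdh5 was the one endothelial marker called, lower in GFPtotal as Efnb2 was (log2 fold change −1.67, adjusted p = 0.0374), and the part of endothelial cells in the Efnb2 result was not tested. Efnb1 and Efnb3 were at mean levels below 0.8 RPKM in both groups and not called, with log2 fold changes of −0.68 (SE 0.65) and 0.06 (SE 0.76), the latter −2.04 without GFPtotal 3, 4 and 5.

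The ephrin-A ligands are held by a lipid anchor and pair mainly with EphA receptors. Efna5, the only ephrin-A gene tested, was at 3.16, 8.29 and 23.3 CPM in GFPtotal and at 2.15, 4.00 and 5.27 CPM in GFPlow (lowest, median, highest). Its log2 fold change of 1.55 (SE 0.49) did not pass the test (adjusted p = 0.0758). The high values were those of GFPtotal 3, 4 and 5 (11.2 to 23.3 CPM), and without them the log2 fold change was 0.10. Efna5 was called by DESeq2 and when GFPtotal 1 or GFPtotal 2 was left out. Efna4, the next ephrin-A gene by level, had 39 counts in GFPtotal and 40 in GFPlow and was not tested.

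Netrins are laminin-related proteins. Ntn4, which binds laminins in basement membranes, led this family with 4.75 RPKM in GFPtotal and 3.37 RPKM in GFPlow (14.0 to 20.3 and 7.32 to 21.2 CPM). Its log2 fold change was 0.50 (adjusted p = 0.338, SE 0.28). Ntn1, the classical attractant of commissural axons, was low in both groups, at medians of 2.99 and 4.85 CPM. The netrin G genes encode lipid-anchored proteins that do not bind the netrin receptors, and of them Ntng2 had a log2 fold change of 0.93 (adjusted p = 0.403).

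Ntng1, chosen after its values were seen, was at 0.133, 1.81 and 6.68 CPM in GFPtotal and at 5.38, 11.1 and 18.4 CPM in GFPlow (lowest, median, highest). The groups overlapped through GFPtotal 6, which lay above GFPlow 1 and 5. The log2 fold change was −2.16 (SE 0.65) and missed the threshold (adjusted p = 0.0623). It was called in 5 of 19 alternative analyses, among them DESeq2, limma-voom and the omission of GFPtotal 6.

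**Figure D2:**
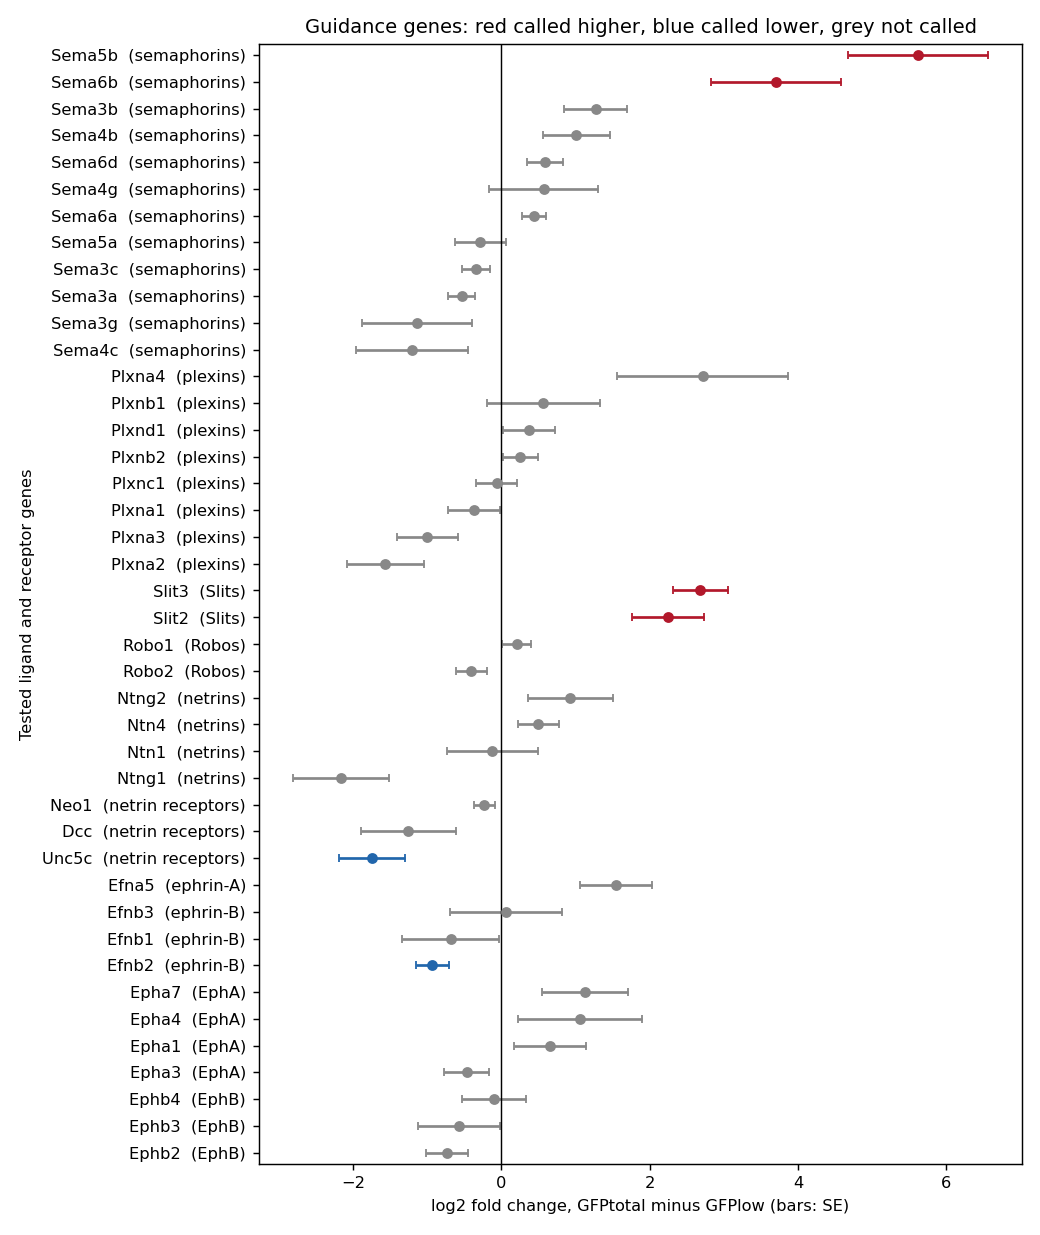
Log2 fold changes (GFPtotal minus GFPlow, points) with their standard errors (bars) for the 42 tested ligand and receptor genes, grouped by family; red points were called higher, blue lower and grey not called. The called genes are Sema5b, Sema6b, Slit3 and Slit2 on the right and Unc5c and Efnb2 on the left, and the receptors other than Plxna4 (2.72) and Unc5c (−1.75) lie between −1.57 and 1.13.

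Unc5c was the only receptor gene called. Unc5 proteins are netrin receptors that mediate repulsion, and they also bind the Flrt family. The gene (ENSMUSG00000059921, chromosome 3, 141465216 to 141834924) was at 2.46, 10.6 and 17.5 CPM in GFPtotal and at 21.7, 31.1 and 60.1 CPM in GFPlow (lowest, median, highest). The libraries did not overlap. Means were 10.4 ± 6.96 and 34.7 ± 14.6 CPM (SD, n = 6 each), with a log2 fold change of −1.75 (adjusted p = 0.0333, SE 0.45). The call was lost in 8 of 19 alternatives, among them the omission of any 1 of GFPtotal 1 and 3 and GFPlow 2, 4, 5 and 6, and that of GFPtotal 3, 4 and 5 together (log2 fold change −1.47, adjusted p = 0.0940), and the direction was the same in all 19.

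Neogenin, encoded by Neo1, was by far the main netrin receptor transcript and also binds the repulsive guidance molecules (RGMs). It accounted for 94.3 ± 2.84% of the netrin receptor level per exon length in GFPtotal and 88.9 ± 2.84% in GFPlow. Its CPM ran from 114 through 137 to 163 in GFPtotal and from 138 through 157 to 197 in GFPlow. The groups overlapped, and the log2 fold change was −0.23 (adjusted p = 0.400, SE 0.14). Dcc, the other classical netrin receptor, was low (medians of 1.59 and 3.81 CPM), and its log2 fold change was −1.25 (adjusted p = 0.289, SE 0.64). Unc5a, Unc5b and Unc5d were not tested, with group means of at most 1.25, 0.524 and 1.17 CPM.

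Robo1 and Robo2, the Slit receptors, were both abundant in both groups and neither was called. Robo1 was at 103, 148 and 199 CPM in GFPtotal and at 92.1, 128 and 159 CPM in GFPlow (lowest, median, highest). Robo2 was at 191, 273 and 373 CPM and at 224, 378 and 520 CPM. The libraries overlapped for both genes. Log2 fold changes were 0.20 (adjusted p = 0.621, SE 0.19) for Robo1 and −0.40 (adjusted p = 0.288, SE 0.20) for Robo2, and the summed Robo level was 36.6 ± 2.68 and 39.4 ± 7.82 RPKM.

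The Slit genes thus stood at different levels in the groups, whereas their receptors showed no called difference. Whether the Slit and Robo differences are unequal was not tested. Robo3 had 0 counts in all 12 libraries. Robo4, the endothelial Robo, had 22 counts, all in GFPtotal 4, against 0 in GFPlow.

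**Figure D3:**
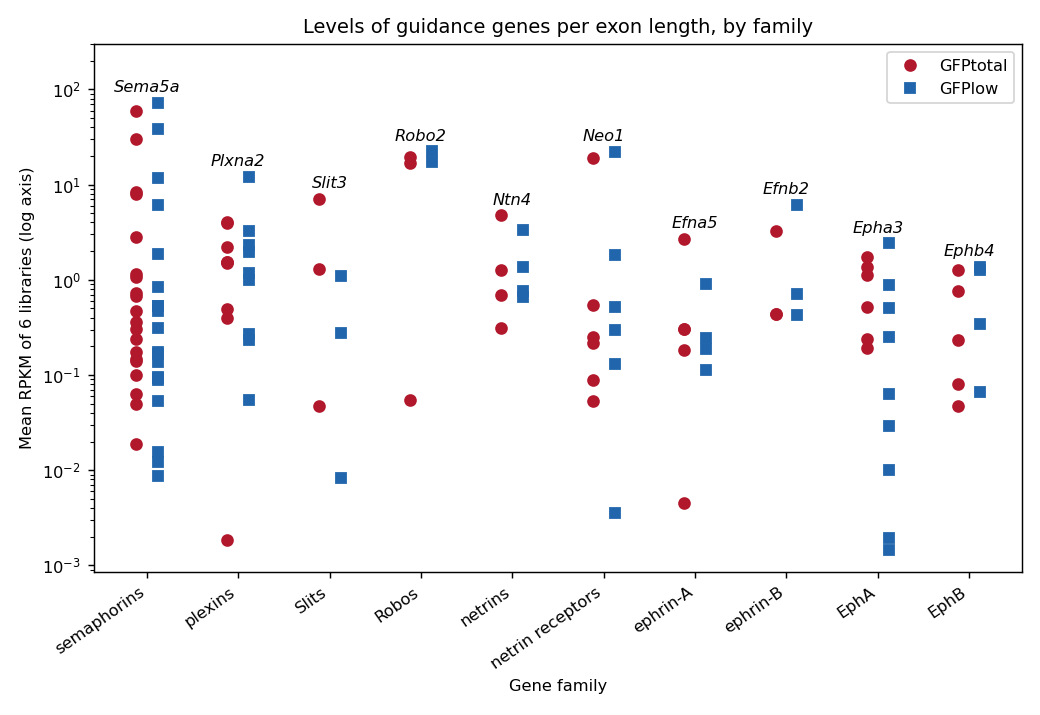
Mean level per exon length (RPKM of 6 libraries, log axis) of each ligand and receptor gene by family, with GFPtotal as red circles and GFPlow as blue squares; group means of 0 are not drawn, and the gene with the highest level of each family is named. Sema5a has the highest level, Robo1, Robo2 and Neo1 follow near 20 RPKM with Sema3c above them, and Slit3 and Efnb2 are the called genes with the highest levels.

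Plexins are the semaphorin receptors, and none of the 8 tested was called. Plxna2 was the main one in GFPlow, with 52.1 ± 15.1% of the summed plexin level per exon length there and 23.5 ± 12.2% in GFPtotal. In CPM it was at 14.0, 63.0 and 132 in GFPtotal and at 115, 175 and 435 in GFPlow (lowest, median, highest). The log2 fold change was −1.57 (SE 0.52) and not called (adjusted p = 0.110). GFPtotal 3, 4 and 5 held the lowest values (14.0 to 35.2 CPM), below the other GFPtotal libraries (90.8 to 132 CPM). Plxnb2 had 3.91 and 3.28 RPKM and a log2 fold change of 0.26 (adjusted p = 0.601, SE 0.23).

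Plxna4, a receptor for class 3 and class 6 semaphorins, was chosen for description after its values were seen, because its GFPtotal libraries fell far apart. GFPtotal 1, 2 and 6 were at 44.7, 38.4 and 45.2 CPM. GFPtotal 3, 4 and 5 were at 2.07, 0.368 and 0.0665 CPM. All 6 GFPlow libraries were at 1.39 to 6.05 CPM. The first 3 libraries thus lay far above GFPlow, and the other 3 within or below its range.

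Over all libraries the log2 fold change of Plxna4 was 2.72 (SE 1.16) and not called (adjusted p = 0.214), and limma-voom gave 0.27 (adjusted p = 0.944). Without GFPtotal 3, 4 and 5, a choice made after the data were seen, it was 3.67 (adjusted p = 3.22e-05). In that analysis 295 of 15703 genes were called (1.88%). Of the 3 antisense transcripts at the locus, Plxna4os1 had 115 counts in GFPtotal, with 8.28 CPM in GFPtotal 6, 0.851 and 0.891 CPM in GFPtotal 1 and 2 and 0 in GFPtotal 3, 4 and 5, and 1 count in GFPlow. It was not tested with all libraries, and without GFPtotal 3, 4 and 5 its fitted log2 fold change was 7.49 (adjusted p = 0.00297), a value that rests on that 1 GFPlow count. Plxna4os2 was at 6.42, 4.13 and 3.12 CPM in GFPtotal 1, 2 and 6. It did not exceed 0.0614 CPM in GFPtotal 3, 4 and 5 or 1.82 CPM in GFPlow. Plxna4os1 and Plxna4os2 share no exonic bases with Plxna4 but lie within its span on the opposite strand. Because counting ignored strand, reads from unspliced Plxna4 RNA there cannot be told apart from theirs. Of the exonic bases of Plxna4, 0.78% are shared, with Plxna4os3, and reads there cannot be assigned to one of the pair, since counting ignored strand.

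**Figure D4:**
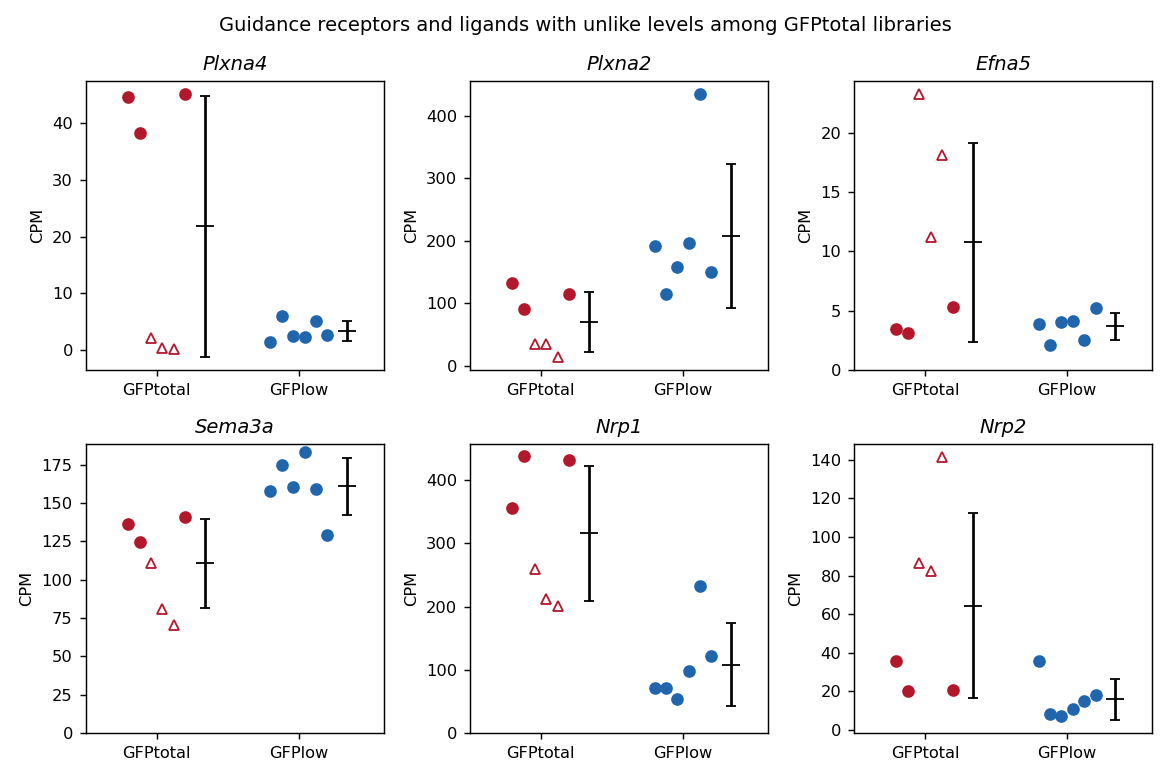
Normalised counts (CPM, linear axis) of Plxna4, Plxna2, Efna5, Sema3a, Nrp1 and Nrp2 in the 6 GFPtotal (red) and 6 GFPlow (blue) libraries; open triangles are GFPtotal 3, 4 and 5, filled circles the other libraries, and black marks the mean ± SD. GFPtotal 3, 4 and 5 are the lowest GFPtotal libraries for Plxna4, Plxna2, Sema3a and Nrp1 and the highest for Efna5 and Nrp2.

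Eph receptors are tyrosine kinases that bind ephrins on neighbouring cells. Of 7 tested, none was called, and 3 EphA genes were above 0 and the other 4 genes below. Epha3 led the EphA genes, with 1.74 RPKM in GFPtotal and 2.41 RPKM in GFPlow and a log2 fold change of −0.47 (adjusted p = 0.419, SE 0.30). Ephb4, the main receptor of ephrin-B2 in veins, led the EphB genes per exon length, with 1.27 RPKM in GFPtotal and 1.37 RPKM in GFPlow. It was at 2.67, 5.27 and 12.0 CPM in GFPtotal and 3.72, 6.16 and 10.8 CPM in GFPlow (lowest, median, highest). Its log2 fold change was −0.10 (adjusted p = 0.929, SE 0.43), and leaving out single libraries moved it between −0.43 and 0.11. Ephb2, another ephrin-B receptor, was higher in CPM (means of 9.62 in GFPtotal and 16.0 in GFPlow). Its log2 fold change was −0.73 (adjusted p = 0.144, SE 0.28).

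Some EphA estimates turned with the libraries that stood apart. Epha1 had a log2 fold change of 0.65 (SE 0.49) with all libraries and −0.43 without GFPtotal 3, 4 and 5. Epha7 and Epha4, chosen after their values were seen, went from 1.13 and 1.06 to −0.12 and −0.74. None of these 6 values passed the test.

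Epha2, a receptor of ephrin-A1, was too low to be tested although its libraries did not overlap. It had 94 counts over the 6 GFPtotal libraries and 1 count over the GFPlow libraries. GFPtotal 6 and GFPlow 6 each held 1 count, so that only their library sizes set them apart (0.0891 and 0.0543 CPM). The ratio of normalised counts was 113, with an exact 95% interval of 19.8 to 4517 that covers counting error only. Ephb1 had 24 counts in GFPtotal (16, 5 and 3 in libraries 1, 2 and 5) and 0 in GFPlow. For counts pooled over each group, the ratio was at least 9.63-fold against a floor of 3 counts in GFPlow. GFPtotal 3, 4 and 6 were at 0 as GFPlow was, and the bound does not cover the spread between libraries. For Robo4 the same bound was 8.83-fold, resting on 1 library.

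In all, 31 of the 74 genes were not tested, and the highest group mean among them was 2.29 CPM. They comprised 8 semaphorins (Sema3d, Sema3e, Sema3f, Sema4a, Sema4d, Sema4f, Sema6c and Sema7a), Plxnb3, Slit1, Robo3, Robo4, Ntn5, Unc5a, Unc5b, Unc5d, 4 ephrin-A genes (Efna1 to Efna4), 5 EphA genes (Epha2, Epha5, Epha6, Epha8 and Epha10), Ephb1, Ephb6 and 4 of the genes matched by spelling. Ntn5 and Robo3 had no counts. Ntn5 shares 87.2% of its exonic bases with other genes, and 5 further members share at least 10%, of which Plxna1 (10.7%) and Ntng2 (14.0%) were tested. Sema3e, a ligand of plexin-D1, had 151 counts in GFPtotal, 102 of them in GFPtotal 4, and 8 in GFPlow.

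Other genes of the pathway were read from lists of 24 co-receptors and further cues and 66 cytoplasmic effectors. Of 20 tested co-receptors and cues, 6 were higher and 0 lower in GFPtotal (median log2 fold change 0.40). Of 58 tested effectors, 1 was higher and 1 lower (median 0.03). Over both lists 8 of 78 tested genes were called (10.3%, against the 5.41% of all genes), and 6 of the 8 were co-receptors or cues. The lists were written with earlier results of these data known, and whether their share exceeds that of all genes was not tested.

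Nrp1, a co-receptor of class 3 semaphorins that also binds vascular endothelial growth factor, was at 201, 308 and 438 CPM in GFPtotal and at 53.2, 84.6 and 232 CPM in GFPlow (lowest, median, highest). Only GFPlow 5 reached the GFPtotal range. The log2 fold change was 1.55 (adjusted p = 0.0147, SE 0.34), and it was 1.90 (adjusted p = 0.0187) without GFPtotal 3, 4 and 5. Nrp2, its paralogue, had a log2 fold change of 2.04 (adjusted p = 0.0475, SE 0.55), and the call was lost in 14 of 19 alternatives, including the omission of any 1 of GFPtotal 3 to 5 and GFPlow 2 to 6. Without GFPtotal 3, 4 and 5 together it was 0.67 (adjusted p = 0.599).

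Among GFPtotal libraries the neuropilins were ordered in opposite ways. Nrp1 was at 201 to 260 CPM in libraries 3, 4 and 5 and at 355 to 438 CPM in libraries 1, 2 and 6, whereas Nrp2 was at 82.6 to 142 CPM and at no more than 35.4 CPM. Nrp1 was thus above GFPlow in either set of libraries, except for GFPlow 5. Nrp2 was likewise above GFPlow in either set, except for GFPlow 1. That library, at 35.4 CPM, was clearly exceeded only by GFPtotal 3, 4 and 5.

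The integrin gene Itga1, whose product binds collagen and, with the beta chain, semaphorin 7A, was at 53.1 ± 11.7 CPM in GFPtotal against 2.57 ± 1.75 CPM in GFPlow (log2 fold change 4.36, SE 0.44, adjusted p = 2.45e-05). The plexin-domain gene Plxdc2 was at 407 ± 210 and 154 ± 30.9 CPM (1.40, SE 0.29, adjusted p = 0.0104), and its log2 fold change was 0.53 (adjusted p = 0.167) without GFPtotal 3, 4 and 5. A pair of further called genes was chosen after their values were seen. Flrt2, which encodes a ligand of Unc5 receptors, was at 181 ± 25.9 and 82.0 ± 32.5 CPM (1.14, SE 0.24, adjusted p = 0.00880), called in all 19 alternatives. Itgb1, the shared beta chain of many integrins, had a log2 fold change of 0.54 (adjusted p = 0.0255, SE 0.13), lost in 8 of 19, among them the omission of GFPtotal 3 or 4 or GFPlow 2 or 3 and of GFPtotal 3, 4 and 5 together (0.39, adjusted p = 0.244).

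Flrt2 was therefore higher and the Unc5 receptor gene Unc5c lower in GFPtotal. The RGM genes, whose products bind neogenin, were not called (log2 fold changes of 0.29 for Rgma and 0.47 for Rgmb). Among effectors, Dock10, a guanine nucleotide exchange factor, was at 68.1 ± 36.7 and 9.98 ± 6.45 CPM (2.77, SE 0.46, adjusted p = 0.00264). It was highest in GFPtotal 3, 4 and 5 (88.4 to 111 CPM, against 25.0 to 45.2 CPM in the other GFPtotal libraries), and without them its log2 fold change was 1.82 (adjusted p = 0.0301). Rgs3, which acts downstream of ephrin-B in its reverse signalling, was at 6.42 ± 3.91 and 17.6 ± 6.10 CPM (−1.45, SE 0.41, adjusted p = 0.0472). Its call was lost in 10 of 19 alternatives, including the omission of any 1 of GFPtotal 3 to 5 and GFPlow 2 to 6, and of GFPtotal 3, 4 and 5 together (log2 fold change −0.85, adjusted p = 0.312). Rgs3 and Efnb2 were thus both lower in GFPtotal, and a link between them was not tested.

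Schwann cell, glial and neuronal markers, from cells that also use these genes, summed to 2.01 to 8.78 CPM in GFPtotal against 1.41 to 5.67 CPM in GFPlow. Foxd3 was at 0 in all libraries, and Sox10 at 0 in all but GFPlow 3 (0.0629 CPM). The highest of these sums belonged to GFPtotal 3, 4 and 5 (7.43 to 8.78 CPM), and their part in the results for those libraries was not tested. Summed leukocyte markers did not exceed 3.92 CPM in any library. Smooth muscle markers summed to 454 to 754 CPM in GFPtotal against 299 to 412 CPM in GFPlow, and 9 of 14 pericyte markers were called higher. Fibroblast markers summed to 19654 to 32741 CPM in the GFPtotal libraries and to 12568 to 19031 CPM in the GFPlow libraries, with 3 of 10 called higher and 1 lower. All 3 lists were thus high in the same group as the Slits, Sema5b and Sema6b, and their part in those results was not tested.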

How the data were processed

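RNA of 12 libraries, 6 per group, was sequenced (Illumina HiSeq 4000, 4 lanes, per the labels, which name a TruSeq DNA Nano gel-free preparation). The authors deposited raw counts. Per the file headers, featureCounts 1.6.4 summed paired-end reads over the exons of Ensembl 84 genes on GRCm38, with a mapping quality of at least 10 and without regard to strand. The submitters' processing notes also list cutadapt and SAMtools. No source used here names the aligner. The series table equalled the single files in 12 of 12 libraries. Symbols were matched by identifier for 47224 genes (GENCODE M21), and coordinates are those of the files.

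After filterByExpr and TMM scaling, genes were tested with edgeR 4.0.16 (R 4.3.3, robust quasi-likelihood F test, two-sided, no covariate), with Benjamini-Hochberg adjustment over all 14523 genes and 0.05 as the threshold. CPM use TMM-scaled library sizes, and RPKM divide them by exon length. Standard errors (SE) are the log2 fold change over the square root of F. The script was checked on simulated data. Intervals and floors cover counting error only, and total counts of 12631266 to 18425596 per library limit the genes below about 1 CPM. Alternatives were other scalings, no filter, a replicate block, limma-voom 3.58.1, DESeq2 1.42.0 and the omission of libraries.

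Members and lists were chosen with earlier results of these data known. Named were all called members, members whose groups did not overlap, the 2 members with the highest RPKM per family, up to 4 called genes per pathway list with the largest change, and Pdgfrb. Further names account for every member or were chosen after their values were seen.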

Additional observations from a re-analysis of the deposited data

Results flagged for a closer look

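For the named guidance genes, each group of 6 libraries was searched for a single library far from the others, meaning that its gap to the nearest other library made up more of the group's whole range than Dixon's critical value for 6 samples allows. Of 66 such groups (33 genes), 7 held one. The critical value gives about 1 in 20 by chance only for normally distributed values. Many of these CPM are skewed or near 0, so no excess can be read from the count. Sema5a, the most abundant semaphorin gene per exon length, stood at 1858 CPM in GFPlow 1. Plxna2, a plexin of the A class, stood at 435 CPM in GFPlow 5, a library that also lay far from the rest on principal component 2 of all genes (11.4% of the variance). Ntng2 was at 6.58 CPM and thus high in GFPlow 1. Sema5b was high in GFPtotal 6, at 12.0 CPM, and in GFPlow 2, at 0.396 CPM. The lowly expressed Efna4 was high in GFPlow 2, at 1.41 CPM, and Epha2 was above 0 only in GFPlow 6 among GFPlow libraries, at 0.0543 CPM from 1 count.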

How the results depend on the processing

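Slit3 and Sema5b were called in 19 of 19 alternatives, Slit2 in 18, Efnb2 in 17, Sema6b in 14 and Unc5c in 11, each in an unchanged direction. With DESeq2 the genes changed numbered 1381 (785 in edgeR), the guidance genes 10 (6) and the other pathway genes 13 (8). Without GFPtotal 3, 4 and 5, chosen after seeing the data, they were 295, 4 and 5. Only 2 of these 4, Slit3 and Sema5b, were also called with all libraries. The others are Plxna4 and the antisense transcript Plxna4os1, which lies within the span of Plxna4. The sign turned for 9 tested members, none of them called: Epha1 (−0.43), Epha4 (−0.74), Epha7 (−0.12), Plxnb2 (−0.0307), Robo1 (−0.23), Efnb3 (−2.04), Plxnb1 (−0.95), Sema4g (−0.55) and Unc50 (0.20). Leaving out single libraries gave 467 to 970, 4 to 8 and 5 to 10 genes, and log2 fold changes of −0.43 to 0.11 for Ephb4 and −0.44 to 0.18 for Sema5a. Without GFPtotal 3 the count over all genes was 467 and without GFPtotal 4 it was 521, and the 5 pathway genes were reached without GFPtotal 3 or 4 or GFPlow 2 or 3. Scaled by library totals alone, 505 genes were higher and 257 lower, against 661 and 124, and among guidance genes 4 and 5, with Plxna2, Sema3a and Ntng1 added to the lower ones. The cause of these differences was not tested. Libraries of the same replicate number were not markedly alike (correlations of same-numbered deviations −0.139 to 0.0892, with 2 GFPtotal libraries of 6 correlating best with their own number). These correlations cannot decide whether the numbers pair the libraries, since GFPtotal 3, 4 and 5 stood apart over all genes. No label ties a library to a mouse, so pairing is unknown. With a replicate block 582 genes, 6 guidance genes and 5 pathway genes were called, with Sema6b lost (adjusted p = 0.0853) and Ntng1 gained. Depth limits the members with few counts, such as Epha2, for which a count of 1 in GFPlow sets a wide interval.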
